A study of Homo sapiens with 2 samples.

Results

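Isoleucine and valine tRNA genes were examined in CLIP-seq libraries of hTrmt13 (TRMT13), the human relative of a yeast enzyme that places a 2'-O-methyl group in the acceptor stem of certain tRNAs. They were taken from the count tables as the features of the tRNA class whose name starts with tRNA-Ile- or tRNA-Val-, which gave 58 genes, 24 for isoleucine and 34 for valine, of 549 listed tRNA genes. The 8 tRNA lookalikes of these isotypes were left out. In CLIP-seq a protein is isolated with an antibody together with the RNA bound to it, and that RNA is sequenced. The cells were MDA-MB-231, an established human breast carcinoma line, with no genotype change or treatment given in the labels. There was 1 group with 2 replicates, each with a table for each read mate (R1 and R2), and 0 control libraries, of input RNA or another antibody, entered the analysis, so the values describe what was recovered and not an enrichment.

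tRNA-Ile and tRNA-Val carry the branched amino acids isoleucine and valine to the ribosome. Names give the anticodon, then the isodecoder (genes with the same mature sequence share this number), then the gene copy. Isoleucine has a major anticodon AAT, whose first base is converted to inosine in the RNA by the ADAT2 and ADAT3 deaminase, a minor GAT, and TAT, which reads the rare isoleucine codon and is encoded by genes with an intron. Valine has AAC, also converted to inosine, CAC and TAC. The yeast enzyme is known to act on glycine, histidine and proline tRNAs, not on these isotypes.

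Replicate 1 held 27907799 R1 counts and replicate 2 held 20590398, of which 60.0% and 56.4% fell on tRNA features. The 58 genes held 268265 and 214288 R1 counts and 145777 and 104779 R2 counts. Values are R1 counts unless R2 is named, and CPM are counts scaled by the library total to 1e6. Nothing in the labels tells if separate cultures were used for the replicates, so their spread may be technical. With 2 libraries an exact two-sided test of a paired difference cannot go below p = 0.5, so differences are set against the SD of the replicates and given without a test. Intervals are exact Clopper-Pearson 95% intervals and cover counting error only. Of the marker genes of the line, vimentin (VIM) had 382 and 722 counts and ZEB1 234 and 282, against 40 and 51 for CDH1, 20 and 27 for EPCAM, 20 and 24 for KRT8 and 4 and 20 for ESR1, while CD44 had only 12 and 7 and AXL 16 and 12.

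Isoleucine tRNAs were recovered at a middling level and valine tRNAs at a very low one. tRNA-Ile took 1.495% of the tRNA counts in replicate 1 (interval 1.489 to 1.501%) and 1.67% in replicate 2 (1.67 to 1.68%), a mean of 1.58% ± 0.126 (SD, n = 2). tRNA-Val took 0.106% (0.105 to 0.108%) and 0.173% (0.170 to 0.175%), a mean of 0.140% ± 0.0469 (SD, n = 2). The gap between the isotypes was far larger than the spread of either. Isoleucine genes make up 4.37% and valine genes 6.19% of the 549 tRNA genes. Among 22 isotypes tRNA-Ile stood in place 12 by share and tRNA-Val in place 21 in the mean of both libraries, with only the selenocysteine tRNA lower. Asp, directly above Ile with 1.59% ± 0.0245 (SD, n = 2), did not differ from it beyond the spread, since the order of the pair turned between replicates. By mean CPM per gene, tRNA-Val was the lowest isotype, at 23.7 ± 6.97 against 383 ± 13.5 for tRNA-Ile (SD, n = 2 each). The median isoleucine gene stood at 94.8 CPM and the median valine gene at 2.48 CPM, beside 63.7 CPM over all 549 tRNA genes. In R2 tRNA-Val was again in place 21, and tRNA-Ile was in place 9.

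Ile-AAT and Ile-TAT held nearly all isoleucine counts. Ile-AAT, with 16 genes and 184167 and 147375 counts, took 74.7% ± 1.65 of the isoleucine counts (SD, n = 2). Ile-TAT, with 5 genes, had 66151 and 46762 counts, or 25.2% ± 1.65 (SD, n = 2). The family means per gene were close, at 430 ± 24.7 CPM for Ile-AAT and 464 ± 14.0 CPM for Ile-TAT (SD, n = 2 each). The median genes were not, at 94.8 CPM in Ile-AAT and 330 CPM in Ile-TAT. Ile-TAT features are also longer. Per listed base Ile-AAT had 155 and 124 counts and Ile-TAT 141 and 99.9. Ile-GAT had 113 and 96 counts over its 3 genes, 0.0473% ± 0.00304 (SD, n = 2) of the isoleucine counts with 12.5% of the genes.

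In valine the smallest family held most of the counts. Val-TAC, with 5 of the 34 genes, had 11478 and 15135 counts, or 69.9% ± 7.85 of the valine counts (SD, n = 2). Val-CAC, with 18 genes, had 4754 and 3859 counts, or 22.9% ± 5.24, and Val-AAC, with 11 genes, had 1602 and 1061, or 7.14% ± 2.61 (SD, n = 2 each). This order of the 3 families held in both libraries. Per gene Val-TAC stood at 115 ± 45.8 CPM, Val-CAC at 9.94 ± 0.671 CPM and Val-AAC at 4.95 ± 0.378 CPM (SD, n = 2 each). Features of the 3 families are 71 to 74 bases long, so the order per base is the same, with 31.4 and 41.5 counts per base for Val-TAC, 3.62 and 2.94 for Val-CAC and 2.00 and 1.32 for Val-AAC. Among the 52 anticodon families with a count, Val-CAC was in place 46, Val-AAC in place 47 and Ile-GAT in place 48 by share.

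Isoleucine genes of the AAT anticodon fell into separate levels. The 6 copies on the minus strand had 17597 to 35274 counts in replicate 1 and 12973 to 28188 in replicate 2. Of the 10 copies on the plus strand, 7 had 1778 to 2626 and 1611 to 2151 counts, tRNA-Ile-AAT-9-1 had 39 and 23, and tRNA-Ile-AAT-10-1 and tRNA-Ile-AAT-11-1 had 0 in all 4 tables. The 2 copies at 0 are listed by RefSeq as pseudogenes. The strands did not overlap in either library, and the minus-strand copies held 91.2% and 90.6% of the family. How often the strands separate in families of other isotypes was not counted. Of 44 isodecoders of all isotypes with copies on both strands, 72.7% had strand means over 2-fold apart in both libraries. The separation is thus not shown to be particular to Ile-AAT. A count of 0 allows a level of up to 0.107 CPM in replicate 1 and 0.146 CPM in replicate 2 (3 counts per library).

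**Figure D1:**
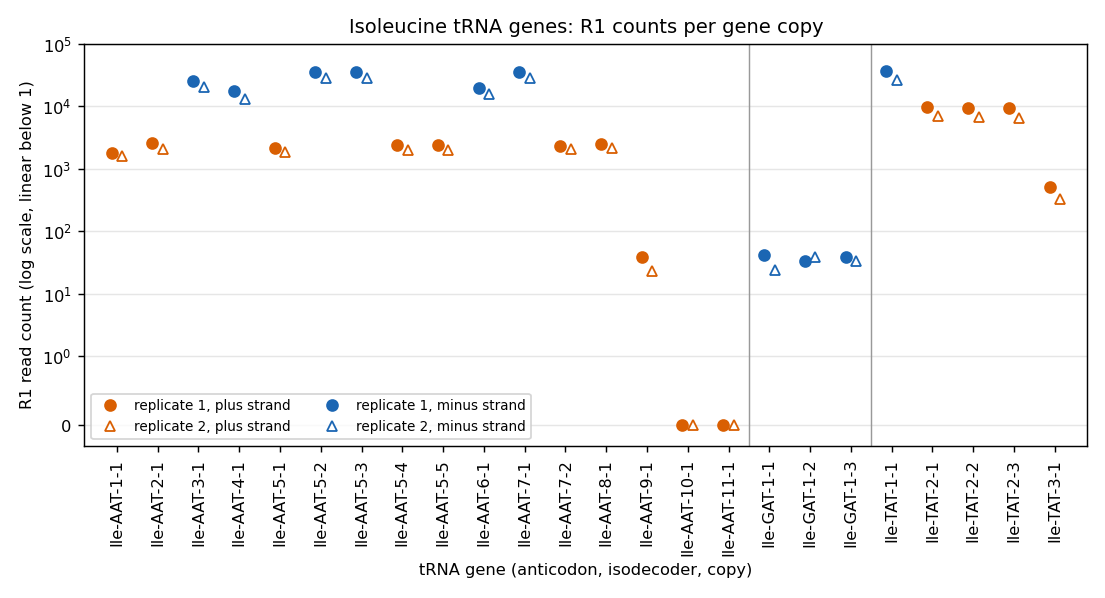
R1 read counts (log axis, linear below 1) of the 24 isoleucine tRNA genes in replicate 1 (filled circles) and replicate 2 (open triangles), coloured by genome strand. The 6 Ile-AAT copies on the minus strand lie at 12973 or more and all 10 on the plus strand at 2626 or less.

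The highest Ile-AAT copies were tRNA-Ile-AAT-5-2 (hg19 chromosome 6, 27144994 to 27145067, minus strand), tRNA-Ile-AAT-7-1 (chromosome 6, 26721221 to 26721294, minus) and tRNA-Ile-AAT-5-3 (chromosome 6, 27205350 to 27205423, minus). tRNA-Ile-AAT-5-2 had 35274 and 28188 counts, tRNA-Ile-AAT-5-3 34967 and 28175, and tRNA-Ile-AAT-7-1 35007 and 28086. These 3 copies were nearly equal in each library, although the last belongs to another isodecoder. tRNA-Ile-AAT-3-1 (chromosome 6, 27242990 to 27243063, minus) followed with 25149 and 20089 counts, and tRNA-Ile-AAT-6-1 (chromosome 6, 26745255 to 26745328, minus) with 19964 and 16061. In R2 tRNA-Ile-AAT-3-1 had 18559 and 12825 counts, close to the 18765 to 19090 and 12889 to 13133 of the first 3. None of these 5 lies in another listed feature.

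Among genes of the intron-bearing TAT anticodon 1 copy led. tRNA-Ile-TAT-1-1 (chromosome 19, 39902808 to 39902900, minus strand) had 37122 counts in replicate 1 and 26340 in replicate 2, 56.2% ± 0.149 of its family (SD, n = 2). The 3 copies of the next isodecoder were nearly equal. tRNA-Ile-TAT-2-1 (chromosome 2, 43037676 to 43037768, plus) had 9679 and 6963 counts, tRNA-Ile-TAT-2-2 (chromosome 6, 26988125 to 26988218, plus) 9389 and 6648, and tRNA-Ile-TAT-2-3 (chromosome 6, 27599200 to 27599293, plus) 9444 and 6483. tRNA-Ile-TAT-3-1 (chromosome 6, 28505367 to 28505460, plus) had only 517 and 328. The 5 features are 93 to 94 bases long against 74 to 75 for the other isoleucine genes. The tables give 1 count per feature, so unspliced and spliced RNA were not separated.

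The 3 Ile-GAT genes lie on chromosome X in a row, between 3756418 and 3833344 on the minus strand, with starts 38424 and 38429 bases apart. tRNA-Ile-GAT-1-1 had 41 and 24 counts, tRNA-Ile-GAT-1-2 had 33 and 39, and tRNA-Ile-GAT-1-3 had 39 and 33. The copies did not differ beyond the spread between replicates.

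The valine counts rested on the 4 minus-strand copies of the TAC anticodon. tRNA-Val-TAC-2-1 (chromosome 11, 59318460 to 59318532, minus) had 3134 and 4559 counts. tRNA-Val-TAC-1-1 (chromosome 11, 59318102 to 59318174, minus) had 2797 and 3675, and tRNA-Val-TAC-1-2 (chromosome X, 18693029 to 18693101, minus), of the same isodecoder, 2792 and 3768. tRNA-Val-TAC-3-1 (chromosome 10, 5895674 to 5895746, minus) had 2343 and 2831 counts. The plus-strand copy tRNA-Val-TAC-4-1 (chromosome 6, 27258405 to 27258477) had 412 and 302.

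**Figure D2:**
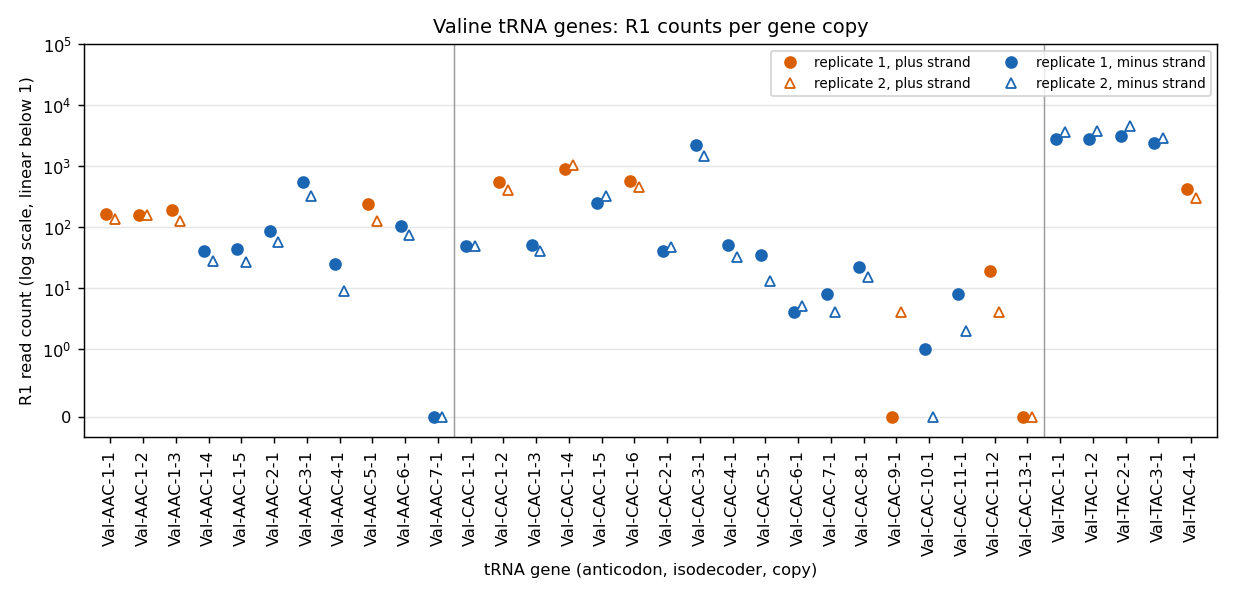
R1 read counts (log axis, linear below 1) of the 34 valine tRNA genes in replicate 1 (filled circles) and replicate 2 (open triangles), coloured by genome strand. Only the 4 minus-strand Val-TAC copies and tRNA-Val-CAC-3-1 lie above 1019 counts in both libraries.

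Of the 18 Val-CAC genes, tRNA-Val-CAC-3-1 (chromosome 19, 4724647 to 4724719, minus) led with 2197 and 1441 counts, 41.8% ± 6.27 of the family (SD, n = 2). It was followed by tRNA-Val-CAC-1-4 (chromosome 5, 180600650 to 180600722, plus) with 897 and 1019, tRNA-Val-CAC-1-6 (chromosome 6, 26538282 to 26538354, plus) with 576 and 459, and tRNA-Val-CAC-1-2 (chromosome 5, 180524070 to 180524142, plus) with 553 and 407. tRNA-Val-CAC-1-5 (chromosome 5, 180649395 to 180649467, minus) had 244 and 319. The other 13 had at most 50 counts in either library, and tRNA-Val-CAC-13-1 had 0 in all 4 tables. This order is by single copy. Summed over its 6 copies, isodecoder Val-CAC-1 had 2369 and 2292 counts, above the 2197 and 1441 of Val-CAC-3.

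Val-AAC was led by tRNA-Val-AAC-3-1 (chromosome 6, 27618707 to 27618779, minus) with 551 and 323 counts, 32.4% ± 2.79 of the family (SD, n = 2). tRNA-Val-AAC-5-1 (chromosome 6, 27203288 to 27203360, plus) had 241 and 126. The plus-strand copies of the first isodecoder, tRNA-Val-AAC-1-2 (chromosome 5, 180591154 to 180591226), tRNA-Val-AAC-1-3 (chromosome 5, 180596610 to 180596682) and tRNA-Val-AAC-1-1 (chromosome 3, 169490018 to 169490090), lay at 126 to 189 counts in both libraries. tRNA-Val-AAC-7-1 had 0 counts in all 4 tables. Here too the order is by single copy. Isodecoder Val-AAC-1, summed over its 5 copies, had 593 and 472 counts, above the 551 and 323 of Val-AAC-3.

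Copies of 1 isodecoder are indistinguishable within their mature sequence, yet their counts differed by strand. Isodecoder Ile-AAT-5 has 3 copies on the plus strand, with 2153 to 2441 counts in replicate 1 and 1857 to 2016 in replicate 2, and 2 on the minus strand, with 34967 to 35274 and 28175 to 28188. The minus-strand mean was thus 15.1 times and 14.4 times the plus-strand mean. In Ile-AAT-7 the ratio was 15.3 and 13.5 in the same direction. In Val-CAC-1 the plus strand was higher, by 5.91 and 4.63 times, and in Val-AAC-1 as well, by 4.04 and 5.05 times. In R2 these 4 isodecoders kept their higher strand, with ratios, in the same order, of 13.7 and 16.0, 13.0 and 16.1, 20.4 and 16.4, and 3.93 and 3.51.

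This split was not particular to isoleucine and valine. Over all isotypes 44 isodecoders had copies on both strands and a mean of at least 10 counts per copy in each library, and 72.7% of them had strand means over 2-fold apart in the same direction in both libraries, 19 higher on the plus and 13 on the minus strand. All 4 isoleucine and valine isodecoders among the 44 passed, and Val-CAC-11, with 27 and 6 counts in all, was too low to be included. Copies on the same strand were compared as well. Of 61 sets of copies sharing isodecoder and strand, with at least 10 counts in the highest copy in each library, 13.1% had a highest copy over 2-fold above the lowest in both libraries, and of the 9 isoleucine and valine sets 1 did, the minus-strand copies of Val-CAC-1. The 2-fold bound was chosen after the data were seen. The alignment settings that decide where a read with several matches is placed were not stated, and their part in the split was not tested.

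**Figure D3:**
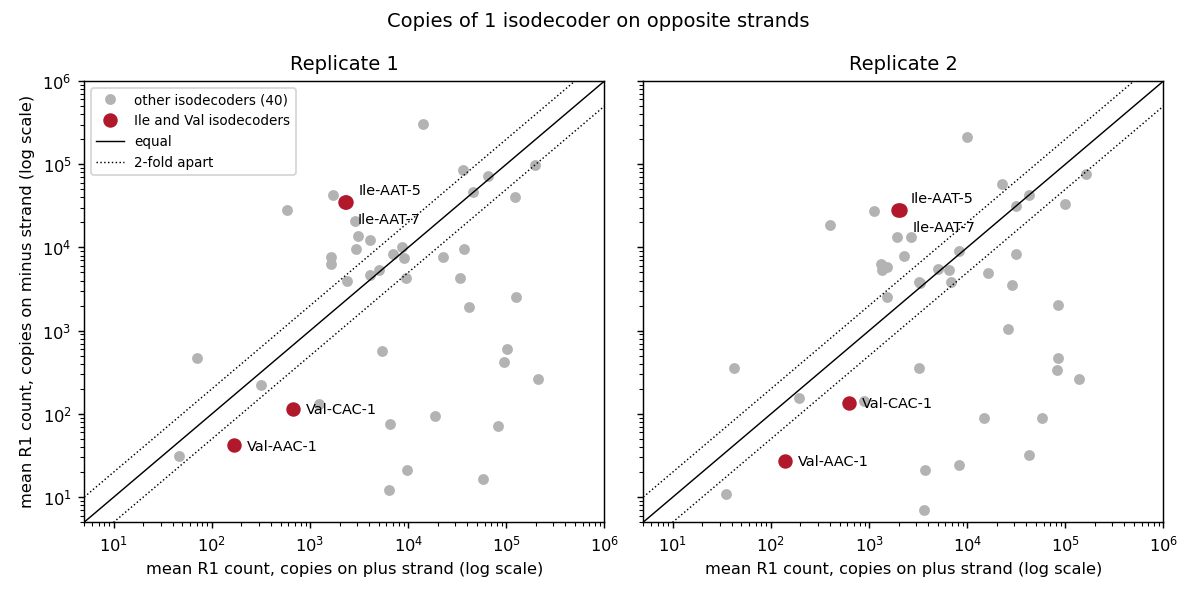
Mean R1 count of the copies on the minus strand against that of the copies on the plus strand (log axes) for the 44 isodecoders with copies on both strands, by replicate. The red points of Ile-AAT-5 and Ile-AAT-7 lie above the upper 2-fold line and those of Val-AAC-1 and Val-CAC-1 below the lower one, among many grey points also outside the lines.

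The mates were balanced differently from copy to copy. The R2 count was 53.5% and 48.1% of the R1 count for tRNA-Ile and 66.5% and 56.9% for tRNA-Val, beside 42.7% and 41.5% over all tRNA features. By the mean of this percentage tRNA-Ile stood in place 12 and tRNA-Val in place 9 of the 22 isotypes. Among genes with at least 50 R1 counts in each library, the median was 56.4% and 44.5% over 18 isoleucine genes and 65.0% and 60.4% over 17 valine genes, beside 39.5% and 36.8% over 394 tRNA genes. By the mean of the replicates tRNA-Val-CAC-1-2 had the highest balance, 149% and 143%, followed by tRNA-Val-CAC-1-6 with 154% and 117%, and tRNA-Val-AAC-1-1 with 96.3% and 88.1%. The order of the first 2 turned between replicates, and the copy in the third place was tRNA-Val-AAC-1-2 (101%) in replicate 1 and tRNA-Val-AAC-5-1 (95.2%) in replicate 2. The Val-CAC pair were the only ones of the 35 with more R2 than R1 counts in both libraries, which 6.09% of the 394 tRNA genes had. The lowest, in the same order in both replicates, were tRNA-Val-AAC-6-1 (chromosome 6, 28703206 to 28703277, minus) with 6.67% in both replicates, tRNA-Val-CAC-1-5 with 15.2% and 11.6%, and tRNA-Ile-AAT-1-1 (chromosome 6, 58149254 to 58149327, plus) with 17.8% and 14.4%. For tRNA-Val-AAC-6-1 these were only 7 and 5 R2 counts against 105 and 75 R1 counts, so its equal percentages rest on few reads.

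**Figure D4:**
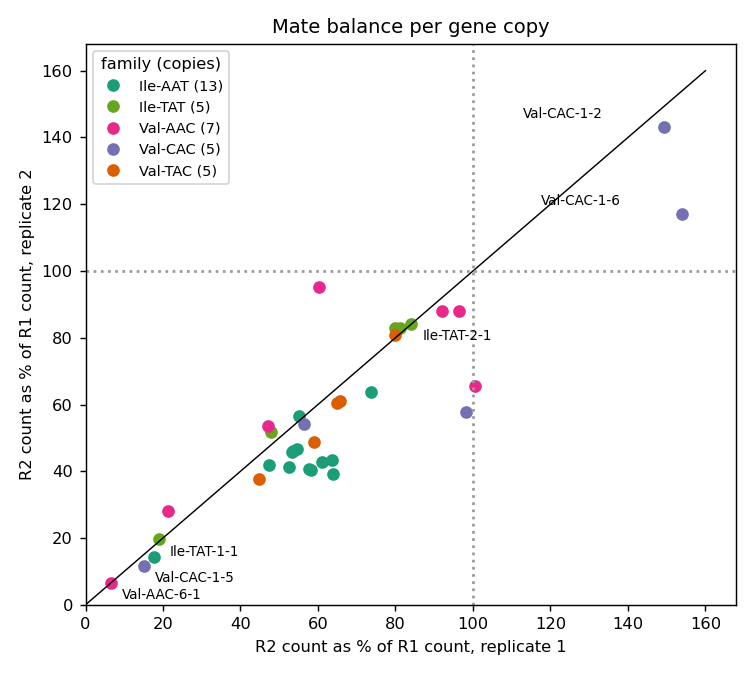
R2 count as percent of the R1 count in replicate 2 against replicate 1 for the 35 isoleucine and valine tRNA genes with at least 50 R1 counts in each library, coloured by anticodon family. The line marks equal values, and only tRNA-Val-CAC-1-2 and tRNA-Val-CAC-1-6 lie above 100% on both axes.

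The mate decided which copy led in some families. tRNA-Ile-TAT-1-1 held the R1 lead, but in R2 it had 7012 and 5158 counts against 8141 and 5866 for tRNA-Ile-TAT-2-1. Its balance was 18.9% and 19.6%, against 79.9% to 84.2% over the 3 copies of the next isodecoder. Summed over these 3 copies, isodecoder Ile-TAT-2 had 28512 and 20094 R1 counts, below the 37122 and 26340 of tRNA-Ile-TAT-1-1. In R2 the sum was 23316 and 16755, above its 7012 and 5158. Within Val-CAC-1 the copies on 1 strand were even in R2, at 825 to 887 and 537 to 588 counts on the plus strand and 37 to 45 and 31 to 37 on the minus strand. In R1 tRNA-Val-CAC-1-5 had 4.98 and 7.98 times the counts of the lowest minus-strand copy of its isodecoder, while in R2 it had 37 counts in both libraries, against 45 and 36 for tRNA-Val-CAC-1-1 and 45 and 31 for tRNA-Val-CAC-1-3. tRNA-Val-AAC-3-1 had 117 and 91 R2 counts and no longer led. The highest in R2 was tRNA-Val-AAC-1-3 in replicate 1, with 174, and tRNA-Val-AAC-5-1 in replicate 2, with 120.

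The replicates were alike for isoleucine and differed for Val-TAC. Over 22 isoleucine genes averaging at least 10 counts the median log2 ratio of replicate 2 over replicate 1 in CPM was 0.12, and over 27 valine genes it was -0.01, beside -0.01 over 463 tRNA genes. The Val-TAC family went from 411 CPM in replicate 1 to 735 in replicate 2, a log2 ratio of 0.84 that turns to -0.25 under the TMM scaling of edgeR, which lowers every log2 ratio by 1.09. Relative to the median of the tRNA genes Val-TAC was higher by 0.85 on the log2 scale. A scaling of whole libraries cannot change this difference, since it shifts both terms alike. In R2 the log2 ratio in CPM was 0.58. Its 4 minus-strand copies had log2 ratios of 0.71 to 0.98, while tRNA-Val-TAC-4-1 had -0.01. Val-CAC had a log2 ratio of 0.14, Val-AAC of -0.16, Ile-AAT of 0.12 and Ile-TAT of -0.06. Over 1.5-fold higher in replicate 2 were 8 of the 49 genes, namely those 4, tRNA-Val-CAC-1-4, tRNA-Val-CAC-1-5, tRNA-Val-CAC-2-1 and tRNA-Ile-GAT-1-2, beside 6.91% of all 463. Over 1.5-fold lower were 3 valine genes with few counts, tRNA-Val-CAC-11-2 (19 and 4), tRNA-Val-AAC-4-1 (25 and 9) and tRNA-Val-CAC-5-1 (35 and 13), beside 5.40% of all. Under TMM scaling 0 of the 49 were higher and 41 lower by this bound, as were 3 and 421 of all 463, so the counts hold only relative to the library totals.

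**Figure D5:**
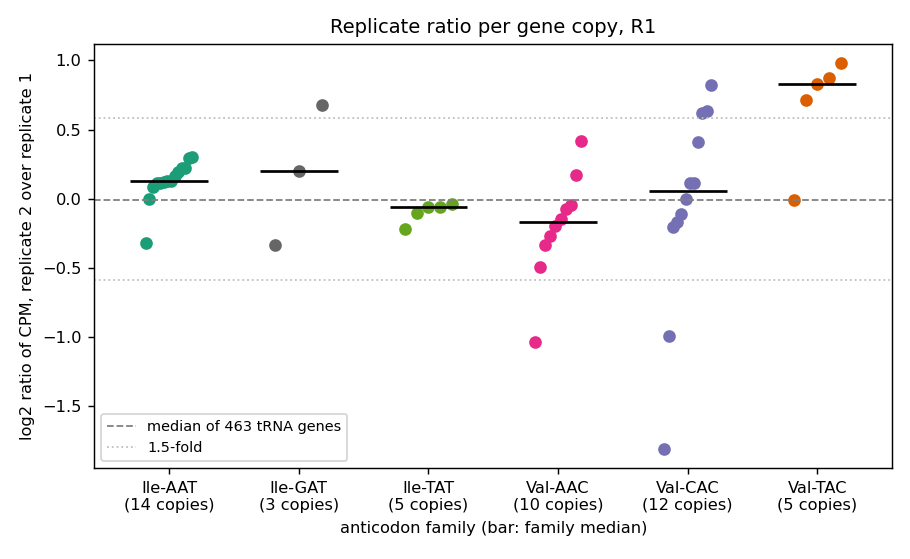
Log2 ratio of R1 CPM in replicate 2 over replicate 1 for the 49 isoleucine and valine tRNA genes with a mean count of at least 10, by anticodon family, with bars at the family medians. The 4 minus-strand Val-TAC points lie between 0.71 and 0.98, above the 1.5-fold line, and Ile-TAT lies close to the median of all 463 tRNA genes. Under TMM scaling every point lies 1.09 lower.

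By position, 15 of the 24 isoleucine genes lie on chromosome 6, where they held 72.3% and 74.1% of the isoleucine counts. Of the valine genes, 11 lie on chromosome 6 with 11.3% and 6.89% of the valine counts, and 8 on chromosome 5, between 180524070 and 180649467, with 12.4% and 10.7%. The 9 on chromosome 1 held 1.03% and 0.568%, with at most 50 counts each. Genes that RefSeq lists as pseudogenes had few or no counts. Some that it lists as tRNA genes were as low, such as tRNA-Val-CAC-6-1 with 4 and 5. By symbol 54 of the 58 genes matched RefSeq, 49 as tRNA genes and 5 as pseudogenes. tRNA-Ile-AAT-10-1 and tRNA-Ile-AAT-11-1 had 0 counts, and tRNA-Val-CAC-11-1, tRNA-Val-CAC-11-2 and tRNA-Val-CAC-13-1 had 0 to 19 in R1. The 4 valine genes without a match, tRNA-Val-AAC-7-1, tRNA-Val-CAC-7-1, tRNA-Val-CAC-9-1 and tRNA-Val-CAC-10-1, had 0 to 8. The 49 listed as tRNA genes had 4 to 37122 counts in replicate 1.

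Reads of these tRNA genes were also counted in other listed features. Of the 58 genes, 12 overlap 13 such features. The share of all 549 tRNA genes with such an overlap was not counted. The features TRNAI2 and TRNAI6, listed as microRNA genes, span tRNA-Ile-TAT-2-2 and tRNA-Ile-TAT-2-3. TRNAI2 held 9389 and 6648 counts, equal to its tRNA, and TRNAI6 held 9457 and 6485. CTC1, a gene of telomere maintenance, had 101371 and 61272 counts, of which 34 and 56 remained after its 3 tRNA features, tRNA-Ile-AAT-4-1 among them, were taken off. tRNA-Ile-AAT-4-1 (chromosome 17, 8130309 to 8130382, minus) had 17597 and 12973. DPP9, which encodes a dipeptidyl peptidase and overlaps tRNA-Val-CAC-3-1, had 12389 and 10566 counts, and 69 and 144 remained after 2 tRNA features. POM121L2 lies on the strand opposite to tRNA-Val-TAC-4-1, and of its 26246 and 16645 counts 6 and 11 remained after 5 tRNA features. The 3 lincRNAs around the Ile-GAT genes had 100 to 129 counts in replicate 1 and 104 to 163 in replicate 2, of which 59 to 89 and 80 to 130 remained after 2 tRNA features each. CROCC, a ciliary rootlet gene around tRNA-Val-CAC-11-2, had 26139 and 20219 counts, and 1581 and 1188 remained after 5 tRNA features.

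The genes that charge, edit and splice these tRNAs ranged from 0.143 CPM (CLP1, replicate 1) to 45.7 CPM (IARS, replicate 2). The median over 20298 protein-coding genes was 0.896 CPM in replicate 1 and 2.04 CPM in replicate 2. IARS and VARS encode the cytosolic isoleucine and valine synthetases and IARS2 and VARS2 the mitochondrial ones. IARS had 572 and 940 counts, VARS 36 and 68, IARS2 180 and 331 and VARS2 13 and 16. Of the deaminase subunits ADAT2 had 130 and 160 counts and ADAT3 17 and 34, and ADAT1, which deaminates another tRNA position, had 40 and 76. Of the splicing endonuclease genes TSEN15 had 49 and 61 counts, TSEN34 32 and 55, and TSEN54 49 and 84. CLP1, an RNA kinase bound to that endonuclease, had 4 and 20, the tRNA ligase gene RTCB 121 and 165, the tRNA cytosine methyltransferase gene NSUN2 124 and 239, and TRMT13 itself 45 and 67. In CPM all 14 of these nuclear genes were higher in replicate 2, as were 98.8% of 13207 nuclear protein-coding genes.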

How the data were processed

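RNA bound to hTrmt13 was measured by CLIP-seq in 2 replicates of MDA-MB-231 cells. The authors deposited raw counts of reads per feature, as whole numbers, in a separate table for each mate of each library. The submitters' processing notes name Bowtie2 (2.3.5.1), bedtools (2.24.0) and the hg19 (GRCh37) build. How reads with several matches and strand were handled was not given in the sources used. POM121L2 and tRNA-Val-TAC-4-1 lie on opposite strands, yet the POM121L2 totals held the counts of that tRNA. Strand thus did not separate these 2 features in the counting. Per the labels' protocols, AlkB-type enzymes were used to strip modifications from the RNA, and the cDNA was amplified by PCR. Without molecular identifiers, reads are not independent molecules.

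After 13 repeated lines were dropped, 741078 features remained. tRNA starts were read as 0-based, since 53 of 54 RefSeq matches (GRCh38.p14, symbols built from the table names) then had the RefSeq length, and 1 was added. Shares are of the 596 tRNA features. Counts were summed by isotype, anticodon, isodecoder and strand. edgeR 4.0.16 (TMM) and DESeq2 1.42.0 size factors on the 18723 features averaging 10 counts or more served as other scalings. They were also run on simulated counts in which few features differed between the libraries. That run cannot show which scaling suits the real libraries. Python 3.11.15, pandas 2.3.3, scipy 1.17.1, matplotlib 3.10.9 and R 4.3.3 were used.

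The genes, lists and settings were chosen with earlier results of these data known. Named were the families, up to 5 highest copies of each, all Ile-TAT copies, the 3 highest and lowest mate ratios by the mean of the replicates, overlapping features and the list of related genes, of which 1 is not reported here. Other copies were named after their values were seen. No RefSeq promoter entry matched the 58 genes, and no sequence is printed.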

Additional observations from a re-analysis of the deposited data

Results flagged for a closer look

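Among the tRNA lookalikes left out of the comparisons, tRX-Val-NNN-3-1 had 8 R1 counts in replicate 1 and 11 in replicate 2, and tRX-Val-NNN-1-1 had 4 in replicate 2. These lie above 3 counts, the limit that a count of 0 allows, and there were no control samples to set them against. The other 6 of the 8 isoleucine and valine lookalikes had at most 1 R1 count.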

How the results depend on the processing

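Under the alternatives 61 of 103 values stayed within their bound (1 SD of the replicates, 1.5 times for a number of genes, 0.1 for a log2 ratio), and 42 did not. Leaving out either of 2 libraries cannot move their mean by a full SD, so those values are no sign of stability. Where a setting does not itself remove counts or change the total, the cause was not tested. No paired analysis was possible because the study has only 1 group. Among the 112 shares computed for 28 single copies, 37 rose and 5 fell by over 1 SD. The Ile-GAT genes all lie inside another listed gene, so their share without such genes could not be given.

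With the 10 highest tRNA features left out of the total, tRNA-Ile took 3.12%, tRNA-Val 0.275%, Ile-AAT 2.33%, Ile-GAT 0.00148%, Ile-TAT 0.786%, Val-AAC 0.0184%, Val-CAC 0.0607% and Val-TAC 0.195%. Of the library total they took 0.920%, 0.0807%, 0.688%, 0.000436%, 0.232%, 0.00545% and 0.0179%, Val-TAC aside. In R2 the same 7 took 1.91%, 0.202%, 1.46%, 0.00171%, 0.443%, 0.0129% and 0.0568%, and in the sum of mates Ile-GAT took 0.00103%, Ile-TAT 0.412%, Val-AAC 0.0104% and Val-CAC 0.0385%. Without the highest copy tRNA-Ile took 1.36%, Ile-AAT 0.960%, Ile-GAT 0.000484%, Ile-TAT 0.175%, Val-AAC 0.00632% and Val-CAC 0.0181%. Without genes inside another listed gene tRNA-Ile took 1.37% and Ile-TAT 0.287%, and without lookalikes in the total Ile-TAT took 0.408%. At a minimum mean count of 50, 17 valine genes remained in place of 27, with a median log2 replicate ratio of 0.11. That median was -0.97 (Ile) and -1.10 (Val) with TMM, -0.98 and -1.10 with DESeq2 size factors, and -0.18 for Ile in R2.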

Other observations

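The mitochondrial genome has its own isoleucine and valine tRNAs, and they differed in the same order as the cytosolic ones. MT-TI had 52109 counts in replicate 1 and 36757 in replicate 2, and MT-TV had 777 and 515. Per base these were 755 and 533 counts for MT-TI and 11.3 and 7.46 for MT-TV. In CPM MT-TI stood at 1826 ± 58.0 and MT-TV at 26.4 ± 2.00 (SD, n = 2 each), so the difference exceeded the spread between replicates. The R2 count was 38.4% and 33.5% of the R1 count for MT-TI and 18.4% and 20.8% for MT-TV. The order is a description of 2 genes and was not tested.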
